A study of Mus musculus with 8 samples.

Results

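The probe sets described here target immunoglobulin heavy and light chain transcripts, measured in cultured mouse peritoneal macrophages on Affymetrix arrays. They are the rows of the deposited value table that the platform annotation pairs with at least 1 symbol of a heavy chain (Igh), kappa chain (Igk) or lambda chain (Igl) gene or gene segment. Ighmbp2 and Igll1 were left out, and rows with several symbols were kept, each counted once. This gave 31 of 28853 rows: 10 for the heavy chain locus, 19 for kappa and 2 for lambda. Each row is one summarised measurement and is called by its row number where the annotation gives it several symbols.

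The cells came from the peritoneal lavage of wild-type C57/Bl6 mice, with the lavages of 10 animals combined into 1 pool. After a night in culture they were kept for 24 h with recombinant HRG, for 24 h without it (basal), for 6 h with HRG or for 6 h without it. HRG, histidine-rich glycoprotein, is a plasma protein, and it was used at 1 µg/ml. There were 2 samples per group and 1 array per sample, so 4 groups and 8 arrays in all. Every sample came from the same pool and nothing says how far the replicates were handled apart, so p-values reflect the spread of these samples alone, and that spread may be technical.

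An antibody is built of paired heavy and light chains. In a developing B cell, a variable (V) segment is joined to a joining (J) segment, with a diversity segment between them in the heavy chain, and the joined exon is transcribed with a constant (C) region. The heavy chain constant region sets the class: Ighm encodes that of IgM, Ighg3 that of IgG3 and Igha that of IgA, while Igkc and Iglc1 encode constant regions of the light chains. Immunoglobulin chains are made by B cells and plasma cells and are not typical macrophage products. Mouse peritoneal lavage is known to hold B cells, B-1 cells among them, beside its macrophages.

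By the RefSeq annotation of GRCm38.p6, all symbols of the heavy chain rows lie on chromosome 12 and those of the lambda rows on chromosome 16. All symbols of 17 kappa rows lie on chromosome 6. The other 2 kappa rows, 10538880 and 10538921, also list Map3k20, on chromosome 2, and Igk-V21, which that table did not match. Of the 31 rows, 15 carried 1 symbol and 16 carried several, with 32 distinct symbols between them. Among these, 31 named immunoglobulin genes or segments, and the other was Map3k20, a kinase gene. RefSeq lists Ighv1-33 and Igkv4-77 as V segment pseudogenes, and each appeared only on rows with several symbols. The rows were spread over the signal range: 21 had a mean above at least 50% of the table's rows, 8 above 25 to 50% of them and 2 above fewer than 25%. The dimmest was Igkv5-43, with 9.08% of all rows below it, and the brightest was the lambda row 10438405, with 77.8% below it.

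No 2 of the 31 rows were near-identical, but many were not independent measurements. Of 465 pairs, 0 differed by at most 0.05 or at most 0.10 log2 on every array. The closest pair in level was row 10402864 (Ighm) and row 10403015 (Ighg3, Igha, Ighv1-33 and Ighv1-26), which differed by at most 0.288. The annotation lists the same transcript records for some rows: 19 pairs shared at least 1 record, and these pairs involved 19 rows. Linking rows that shared a record left 19 separate groups, 7 of them with more than 1 row and the largest with 7 rows. Across the 8 arrays, the Pearson correlation of 2 rows ranged from 0.0469 to 0.985, with a median of 0.769. These correlations are a description, since the rows share arrays and often sequence.

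Rows with the same symbols did not always follow each other. The 2 Igha rows, 10403034 and 10403063, shared all 7 of their transcript records and correlated at 0.985, with a mean offset of 0.61 log2. Rows 10403015 and 10403018, which carry the same 4 heavy chain symbols and share 9 records, also correlated at 0.985. By contrast, Ighm rows 10402864 and 10402991 shared 0 records and correlated at 0.686. The 2 Igkv19-93 rows, 10545177 and 10545182, correlated at 0.617. Over the 9 pairs of rows with the same symbols, the median correlation was 0.918.

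All 31 rows had their lowest group mean in basal samples at 24 h. In 23 rows, both basal 24 h arrays lay below the other 6 arrays, against 5.23% of all rows in the table. The highest group mean was that of HRG at 24 h in 14 rows, that of HRG at 6 h in 3 and that of basal cells at 6 h in 14. After subtraction of each row's mean over the 8 arrays, the median of the 31 rows was 0.37 and 0.06 log2 on the HRG 24 h arrays, against -0.29 and -0.48 on the basal 24 h arrays. It was 0.14 and -0.08 on the HRG 6 h arrays, against 0.32 and 0.11 on the basal 6 h arrays. The basal 24 h arrays were thus the 2 lowest, while the other 3 groups overlapped.

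**Figure D1:**
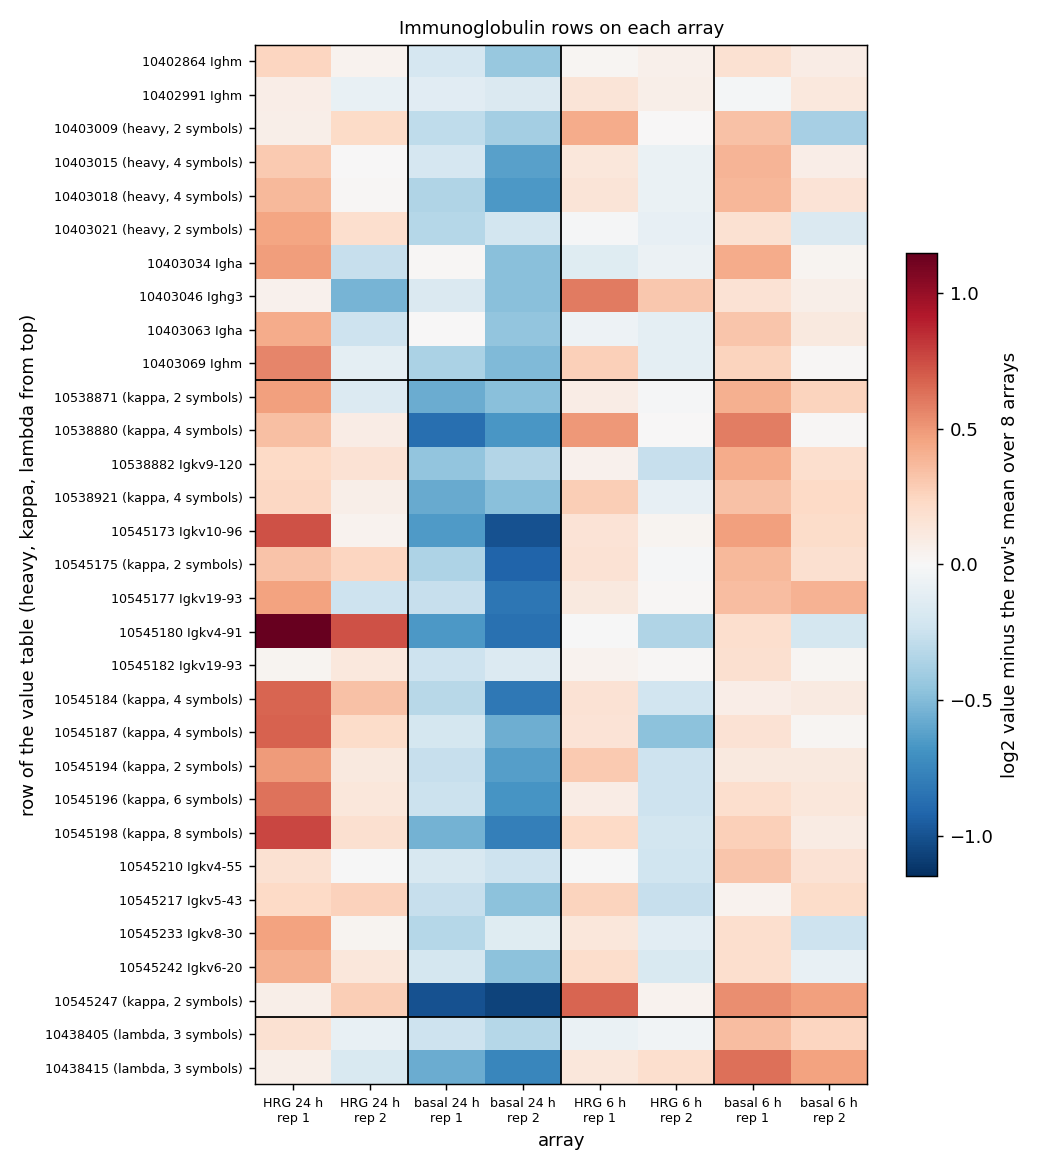
Heat map of the 31 immunoglobulin rows (vertical axis; heavy, kappa and lambda from the top) on the 8 arrays (horizontal axis), coloured by the log2 value minus the row's mean over the arrays, with red above and blue below it. The basal 24 h columns are mostly blue, with medians of -0.29 and -0.48, and Igkv4-91 is the darkest red under HRG at 24 h.

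Within every group, the first replicate array lay above the second for most of these rows. It did so in 27 of 31 rows for HRG at 24 h, 24 for basal at 24 h, 27 for HRG at 6 h and 27 for basal at 6 h. Over all rows of the table the share was 45.7%, 55.4%, 48.6% and 43.6% in the same groups. The median gap between the first and the second array over the 31 rows was 0.30 log2 for HRG at 24 h, 0.21 for basal at 24 h, 0.25 for HRG at 6 h and 0.17 for basal at 6 h. Most rows thus moved together between arrays of a group, in the same direction in every group. Nothing says whether arrays with the same replicate number were handled together, and the cause was not tested. The array that was highest most often was HRG 24 h replicate 1, in 16 rows, and the one that was lowest most often was basal 24 h replicate 2, in 23 rows. The results at 24 h are therefore also given without these arrays.

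For the labelled cell type, values of some of the 12 measured genes of macrophage identity are given. Adgre1, which encodes F4/80, had 13.38 to 13.63 log2 over the 8 arrays, and Csf1r, the receptor for macrophage colony-stimulating factor, had 13.06 to 13.27. Cd68 had 13.07 to 13.39 and Lyz2, which encodes lysozyme, had 13.80 to 13.98. Markers of peritoneal macrophages in the same list were measured at lower values, with 10.02 to 10.84 for Gata6, 8.63 to 8.93 for Icam2 and 7.85 to 8.78 for Timd4. Values of different probe sets are not comparable as levels, so these values are a description and do not test the cell type. Values of replicate arrays over all 28853 rows correlated between 0.996 and 0.998, and array medians ranged from 7.18 to 7.29.

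The comparison of HRG with basal samples at 24 h asked which transcripts differed after a day with the protein. Immunoglobulin rows were higher with HRG: 12 of 31 rose, 0 fell and 19 did not pass the threshold of an adjusted p of 0.05 (limma, Benjamini-Hochberg over all 28853 rows). Over the whole table, 1.66% of rows rose and 0.686% fell. The median difference over the 31 rows, HRG minus basal, was 0.61 log2 (range 0.08 to 1.69), against -0.02 over all rows, whose 5th and 95th percentiles were -0.25 and 0.30. In 28 rows both HRG arrays lay above both basal arrays and in 0 rows below them, against 18.7% and 20.2% of all rows. By locus, 10 of 19 kappa rows rose (median 0.76), 1 of 10 heavy chain rows (median 0.47) and 1 of 2 lambda rows (median 0.46). Differences between the loci were not tested.

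The count of rows that passed rested on single arrays. Without HRG 24 h replicate 1, 1 row passed, and without basal 24 h replicate 2, 2 rows passed. Without HRG 24 h replicate 2, 8 passed, and without basal 24 h replicate 1, 9 passed. The median over the 31 rows moved less, between 0.47 and 0.74 when any 1 of the 8 arrays was left out.

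Among the kappa V segments, Igkv4-91 (row 10545180) differed most. It had 9.68 and 9.27 log2 in HRG samples at 24 h, against 7.88 and 7.68 in basal samples at 24 h. The HRG arrays lay well above the basal ones, with no overlap. The difference was 1.69 ± 0.18 (SE, n = 2 arrays per group), or 3.23-fold, with a 95% confidence interval of 1.30 to 2.09 and an adjusted p of 0.00126 by limma. This row rose under each of the 16 alternative settings tried. Without HRG 24 h replicate 1, where it alone passed, its difference was 1.49 (adjusted p = 0.0243, limma).

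Row 10545247, which carries the V segments Igkv6-14 and Igkv6-15, had 8.89 and 9.10 log2 with HRG, against 7.82 and 7.76 without it. It differed by 1.20 ± 0.17 (2.30-fold, adjusted p = 0.00591) and was the other row that passed without basal 24 h replicate 2. Igkv10-96 (row 10545173) had 7.86 and 7.17 log2 with HRG, against 6.48 and 6.13 without it, a difference of 1.21 ± 0.20 (2.32-fold, adjusted p = 0.0138). Its HRG arrays differed by more than its basal arrays but stayed above them. A second row with Igkv10-96 together with the joining segment Igkj1, 10545175, rose by 0.93 ± 0.16 (adjusted p = 0.0172), with 8.16 and 8.08 log2 with HRG against 7.48 and 6.91 without it. It lists every transcript record of row 10545173, so these rows are not separate evidence.

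Several rows combine V segments of the Igkv4 family with the kappa constant region Igkc, so that their signal cannot be given to 1 gene. Row 10545198 (Igkc, Igkv19-93 and 6 Igkv4 segments) had 9.56 and 8.97 log2 with HRG, against 8.25 and 8.00 without it, and rose by 1.14 ± 0.20 (2.21-fold, adjusted p = 0.0154). Row 10545184 (Igkc and 3 Igkv4 segments) had 8.73 and 8.40 log2 with HRG, against 7.74 and 7.24 without it, and rose by 1.07 ± 0.18 (adjusted p = 0.0141). Row 10545196 (Igkc and 5 Igkv4 segments) had 9.25 and 8.76 log2 with HRG, against 8.38 and 7.95 without it, and rose by 0.84 ± 0.18 (adjusted p = 0.0432). In these 3 rows every HRG array lay above every basal array. The 3 share transcript records and are not separate evidence. Igkv4-55 (row 10545210), a family member with a row of its own, had 6.67 and 6.49 log2 with HRG, against 6.31 and 6.26 without it. Its difference of 0.30 ± 0.11 did not pass (adjusted p = 0.307). Of the 7 rows with an Igkv4 segment, 4 rose (median 0.84).

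Igkv9-120, a kappa V segment with a row of its own (10538882), had 8.04 and 7.98 log2 with HRG, against 7.36 and 7.48 without it, and rose by 0.59 ± 0.12 (adjusted p = 0.0395). Rows 10538880 and 10538921 list Igkv9-120, Igk-V21, Igkv1-117 and the unrelated Map3k20. They share transcript records and are not separate evidence. Row 10538880 had 7.81 and 7.55 log2 with HRG, against 6.60 and 6.79 without it, and rose by 0.98 ± 0.20 (adjusted p = 0.0339). Row 10538921 had 9.14 and 8.97 log2 with HRG, against 8.32 and 8.42 without it, and rose by 0.68 ± 0.13 (adjusted p = 0.0220). Replicates of these rows lay closer together than the groups did. The 2 Igkv19-93 rows were higher with HRG on both arrays without passing, by 0.66 ± 0.22 (row 10545177, adjusted p = 0.225) and 0.27 ± 0.10 (row 10545182, adjusted p = 0.261). Row 10538871 (Igkv1-133 and Igkv1-135) had 9.06 and 8.43 log2 with HRG, against 8.02 and 8.11 without it, a difference of 0.68 ± 0.17 (adjusted p = 0.0844).

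The heavy chain row that rose was 10403018 (Ighg3, Igha, Ighv1-33 and Ighv1-26). It had 9.16 and 8.80 log2 with HRG, against 8.44 and 8.12 without it, and rose by 0.70 ± 0.15 (1.62-fold, adjusted p = 0.0457). Its companion with the same symbols, row 10403015, had 8.53 and 8.23 log2 with HRG, against 8.03 and 7.60 without it, a difference of 0.57 ± 0.17 (adjusted p = 0.158). Row 10403009 (Ighv3-6 and Igha), a dim row, had 6.07 and 6.22 log2 with HRG, against 5.71 and 5.61 without it, a difference of 0.49 ± 0.21 (adjusted p = 0.402).

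Of the 6 rows that carry only a heavy chain constant region symbol, 0 passed at 24 h (median 0.33). An unadjusted p under 0.05 was found in 2 of them, and in 3246 of all 28853 rows. They are grouped here by symbol alone. Probe sequences were not used, so whether a row measures the constant region or a joined V segment is not known. For IgM, Ighm row 10402864 had 8.42 and 8.21 log2 with HRG, against 7.98 and 7.73 without it (0.46 ± 0.11, adjusted p = 0.0766). Ighm row 10403069 had 7.10 and 6.42 log2 with HRG, against 6.17 and 6.03 without it (0.66 ± 0.20, adjusted p = 0.185). Ighm row 10402991 had 8.40 and 8.24 log2 with HRG, against 8.20 and 8.16 without it, and differed by 0.14 ± 0.10 (95% confidence interval -0.09 to 0.36). All 3 Ighm rows were thus higher on both HRG arrays, by unequal amounts. For IgA, Igha row 10403034 had 8.66 and 7.91 log2 with HRG, against 8.19 and 7.70 without it. Igha row 10403063 had 8.00 and 7.33 log2 with HRG, against 7.58 and 7.12 without it. Their differences of 0.34 ± 0.24 and 0.32 ± 0.20 were within the replicate spread, and the arrays of the groups overlapped. For IgG3, Ighg3 (row 10403046) had 6.12 and 5.54 log2 with HRG, against 5.91 and 5.59 without it, a difference of 0.08 ± 0.18 (95% confidence interval -0.33 to 0.48, adjusted p = 0.964).

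**Figure D2:**
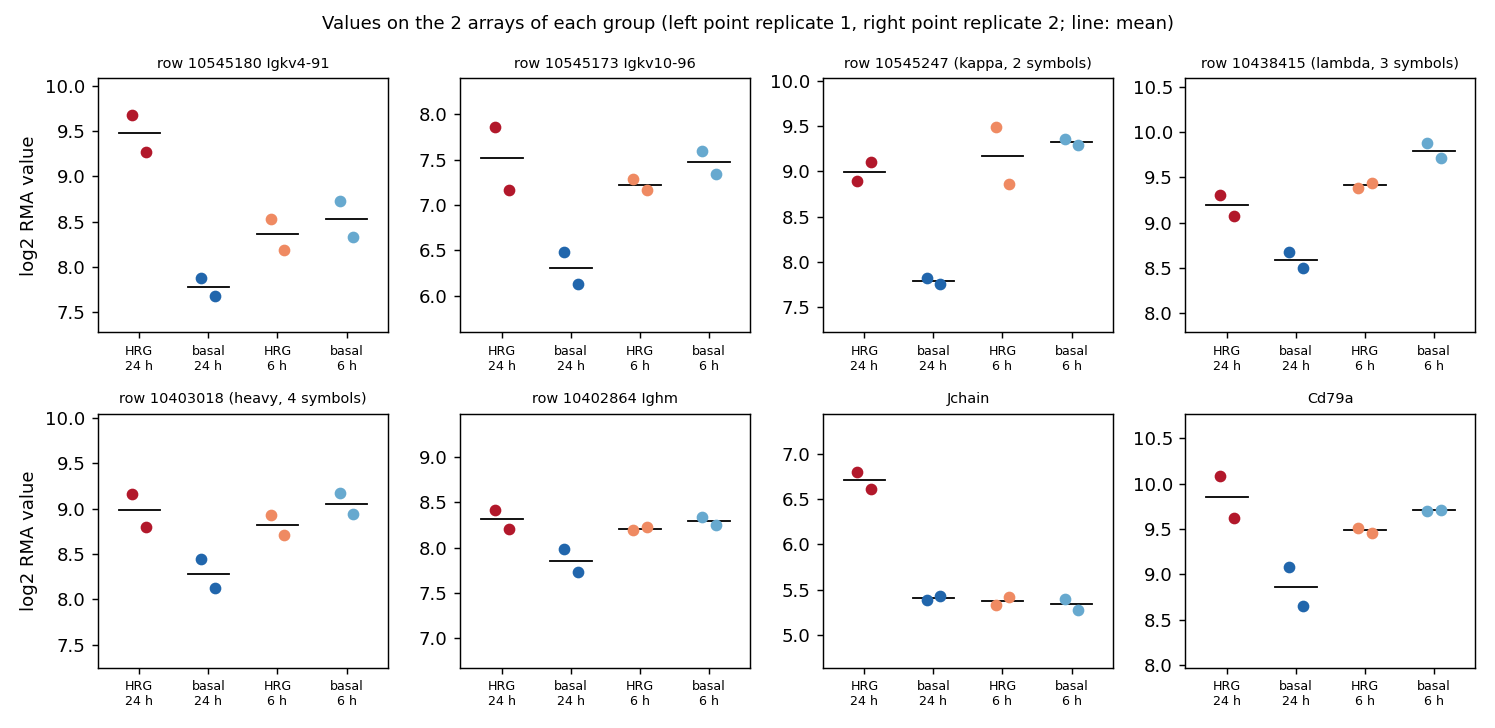
Log2 RMA values (vertical axes, each spanning the same range) on the 2 arrays of each group (horizontal axis), with a line at the mean, for the 3 kappa rows, the lambda row and the heavy chain row with the highest difference at 24 h, and for Ighm row 10402864, Jchain and Cd79a. Igkv4-91 lies at 9.68 and 9.27 with HRG at 24 h, against 7.88 and 7.68 in basal samples, and the Jchain values stand above the rest at 6.80 and 6.61 with HRG at 24 h.

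The lambda rows both carry Iglv1, Iglv2 and the constant region Iglc1, share a transcript record and are not separate evidence. Of them, 1 passed. Row 10438415 had 9.31 and 9.07 log2 with HRG, against 8.68 and 8.50 without it, and rose by 0.60 ± 0.12 (1.51-fold, adjusted p = 0.0259). Row 10438405 had 9.62 and 9.36 log2 with HRG, against 9.21 and 9.12 without it, a difference of 0.33 ± 0.11 (adjusted p = 0.205). Both HRG arrays lay above both basal arrays in each of them.

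The comparison at 6 h asked about the early effect of HRG. No immunoglobulin row passed in either direction (0 of 31 by limma), and the smallest adjusted p was 0.249. At an unadjusted p under 0.05 by limma there were 4 of the 31 rows. Of all 28853 rows, 2767 were under it, a similar share. Of all rows, 0.156% rose and 0.308% fell. The median difference over the 31 rows, HRG minus basal, was -0.17 log2 (range -0.42 to 0.33), against 0.02 over all rows, whose 5th and 95th percentiles were -0.27 and 0.24. The difference was below 0 in 27 rows and above it in 4. In 13 rows both HRG arrays lay below both basal arrays and in 1 row above them, against 17.4% and 19.2% of all rows.

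The 4 rows at an unadjusted p under 0.05 were all lower with HRG at 6 h. Igkv9-120 (row 10538882) had 7.86 and 7.55 log2 with HRG at 6 h, against 8.24 and 8.01 without it, a difference of -0.42 ± 0.12 (95% confidence interval -0.70 to -0.14). Lambda row 10438415 had 9.38 and 9.44 log2 with HRG, against 9.88 and 9.71 without it (-0.38 ± 0.12), and lambda row 10438405 had 9.37 and 9.41 log2, against 9.80 and 9.70 (-0.36 ± 0.11). The arrays of these rows did not overlap between groups. Igkv4-55 differed by -0.36 ± 0.11. The row with the highest difference was Ighg3, with 6.67 and 6.38 log2 in HRG samples at 6 h, against 6.24 and 6.14 in basal samples at 6 h (0.33 ± 0.18, adjusted p = 0.642), and it was the 1 row with both HRG arrays above both basal arrays. The other rows above 0 at 6 h included 10403009 (0.24 ± 0.21) and Ighm row 10402991 (0.05 ± 0.10). Igkv4-91 had 8.53 and 8.19 log2 with HRG at 6 h, against 8.73 and 8.33 without it, so that its arrays overlapped (-0.17 ± 0.18).

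**Figure D3:**
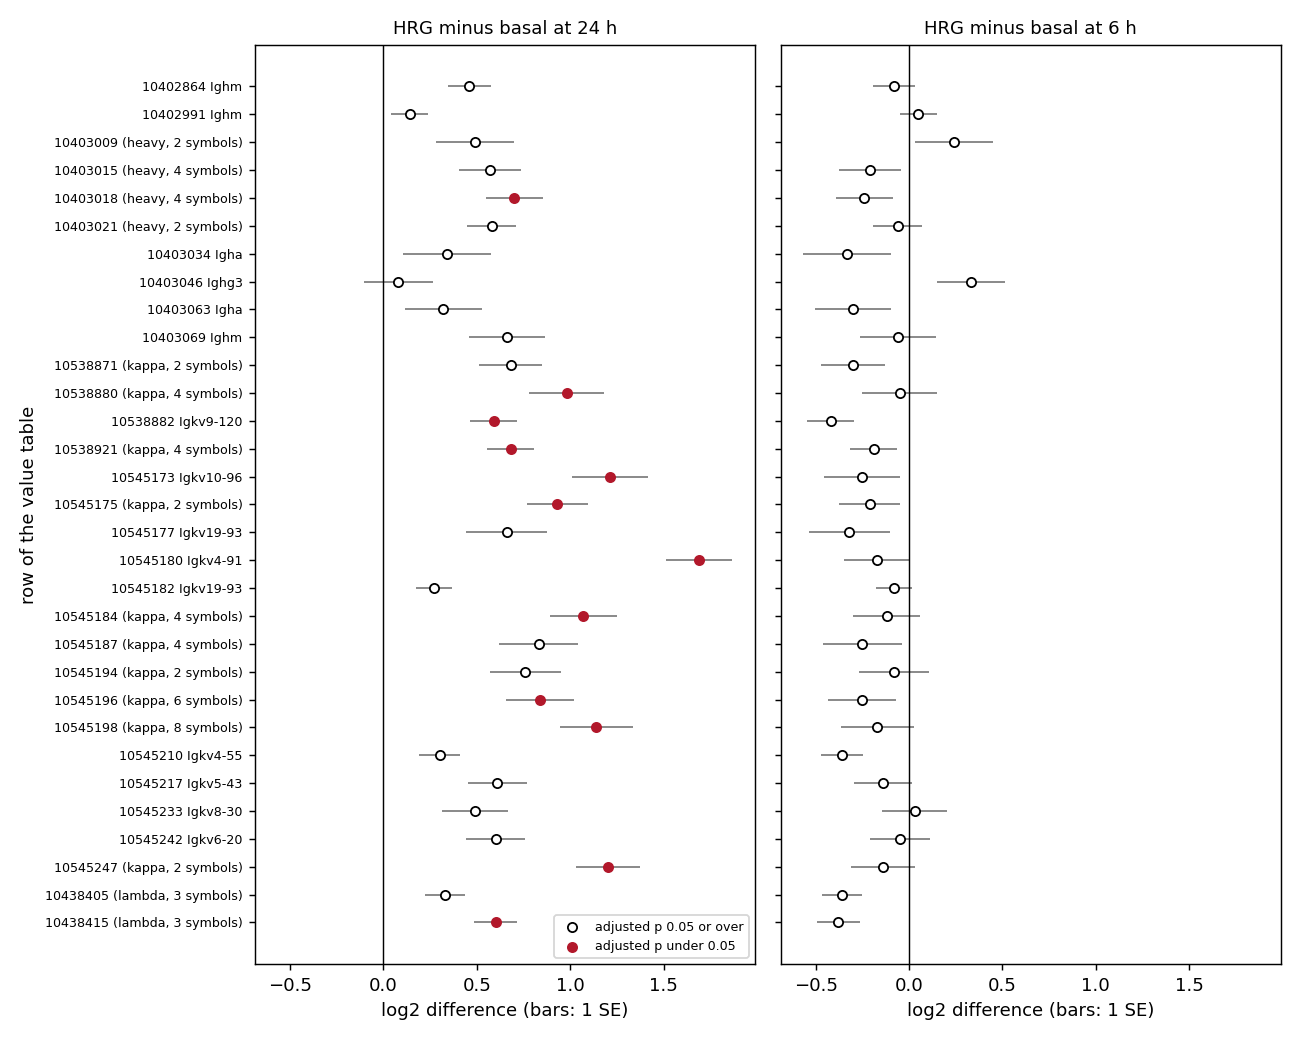
HRG minus basal (log2) of each of the 31 immunoglobulin rows at 24 h and at 6 h, in the left and right panel, with bars of 1 SE of the limma fit and filled points for an adjusted p under 0.05. At 24 h the values run from 0.08 to 1.69, with 12 rows past the threshold, and at 6 h from -0.42 to 0.33, with 0 rows past it.

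The difference of the HRG effects, 24 h minus 6 h, was tested directly. It was higher than 0 past the threshold in 4 of 31 rows and lower in 0, while 0.364% of all rows passed upward and 0.218% downward. The median over the 31 rows was 0.84 log2 (range -0.26 to 1.87), against -0.03 over all rows. Igkv4-91 had a difference of effects of 1.87 ± 0.25 (95% confidence interval 1.31 to 2.42, adjusted p = 0.0152), and row 10545247 (Igkv6-14 and Igkv6-15) of 1.35 ± 0.24 (adjusted p = 0.0470). Igkv9-120 (row 10538882) had 1.01 ± 0.18 (adjusted p = 0.0403) and lambda row 10438415 had 0.98 ± 0.16 (adjusted p = 0.0364). In the last 2 rows the difference joins a positive value at 24 h to a negative one at 6 h, whereas in the first 2 the 24 h value makes up most of it. Ighg3 had the lowest value, -0.26 ± 0.26. These calls also rested on single arrays: 0 rows passed without HRG 24 h replicate 1, without basal 24 h replicate 2 or without HRG 6 h replicate 2. Without basal 6 h replicate 1, 1 row passed, and without HRG 6 h replicate 1, 2 passed.

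The basal samples of both times show how the rows changed with time in culture in the absence of HRG. The rows were lower at 24 h: 16 of 31 fell, 0 rose and 15 did not pass, while 4.22% of all rows fell and 2.53% rose. The median difference, 24 h minus 6 h, was -0.59 log2 (range -1.53 to -0.19), against 0.03 over all rows, whose 5th and 95th percentiles were -0.40 and 0.31. In 29 rows both 24 h arrays lay below both 6 h arrays and in 0 above them, against 20.4% and 22.9% of all rows. By locus, 11 of 19 kappa rows, 3 of 10 heavy chain rows and 2 of 2 lambda rows fell. The count was 3 without basal 6 h replicate 1 and 6 without basal 24 h replicate 2. The basal 24 h arrays serve both here and in the comparison of HRG with basal at 24 h, so the 2 comparisons are not independent.

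Row 10545247 (Igkv6-14 and Igkv6-15) fell most in basal samples, with 7.82 and 7.76 log2 at 24 h, against 9.36 and 9.29 at 6 h, a difference of -1.53 ± 0.17 (2.88-fold, adjusted p = 0.000786). Lambda row 10438415 had 8.68 and 8.50 log2 at 24 h, against 9.88 and 9.71 at 6 h (-1.20 ± 0.12, adjusted p = 0.000343). Igkv10-96 (row 10545173) had 6.48 and 6.13 log2 at 24 h, against 7.60 and 7.34 at 6 h (-1.17 ± 0.20, adjusted p = 0.00760). In these 3 rows the gap between times was several times the gap between replicates. Igkv4-91 fell as well, by 0.75 ± 0.18 (adjusted p = 0.0312), with 7.88 and 7.68 log2 at 24 h against 8.73 and 8.33 at 6 h. Row 10403018 fell by 0.78 ± 0.15 and lambda row 10438405 by 0.59 ± 0.11. In all 6 rows with only a constant region symbol, both 24 h arrays lay below both 6 h arrays (median -0.44). Ighm row 10402864 was the 1 of them that passed, with 7.98 and 7.73 log2 at 24 h against 8.34 and 8.25 at 6 h (-0.43 ± 0.11, adjusted p = 0.0494). Its call was lost in 9 of 15 alternative settings. The other 9 rows that fell did so by between 0.45 (Igkv4-55) and 1.07 (row 10538880).

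With HRG present, few rows passed between the times. In HRG samples, 24 h minus 6 h, 1 of 31 rows rose, 0 fell and 30 did not pass, while 3.22% of all rows rose and 1.88% fell. The median was 0.18 log2 (range -0.70 to 1.11), against -0.02 over all rows, whose 5th and 95th percentiles were -0.32 and 0.35. Both 24 h arrays lay above both 6 h arrays in 8 rows and below them in 2, against 22.3% and 25.7% of all rows. The row that rose was Igkv4-91, with 9.68 and 9.27 log2 at 24 h, against 8.53 and 8.19 at 6 h (1.11 ± 0.18, 2.16-fold, adjusted p = 0.00613). Without HRG 6 h replicate 2 it did not pass, and without HRG 24 h replicate 1 its difference was 0.91 (adjusted p = 0.0592, limma). Ighg3 went the other way, with 6.12 and 5.54 log2 at 24 h, against 6.67 and 6.38 at 6 h (-0.70 ± 0.18, adjusted p = 0.0593), and passed downward without HRG 24 h replicate 1. Chosen after the values were seen, 4 rows had both HRG 24 h arrays above the other 6 arrays: Igkv4-91, 10545184, 10545187 with the same 4 kappa symbols, and 10403021 (Igha and Ighv1-33). Over all rows of the table, 7.96% did so.

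Genes of B cell identity were set beside the immunoglobulin rows, because these transcripts are made by B cells. In bulk samples, fewer cells of a type and less RNA per cell cannot be told apart. Of 19 measured genes, 6 rose and 0 fell with HRG at 24 h (median 0.49), 0 passed at 6 h (median -0.24), and 15 fell in basal samples between 6 h and 24 h (median -0.80). In HRG samples 1 rose between the times and 0 fell (median 0.07). Their log2 values summed to 175.79 and 171.59 in HRG samples at 24 h, against 165.13 and 161.15 in basal samples at 24 h. They summed to 173.12 and 172.23 in HRG samples at 6 h, against 177.91 and 176.61 in basal samples at 6 h. The basal 24 h arrays were the 2 lowest, as for the immunoglobulin rows. Ebf1, Pax5, Cd79a, Cd79b and Ms4a1 were all measured, and the part of these genes' cells in the immunoglobulin values was not tested.

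**Figure D4:**
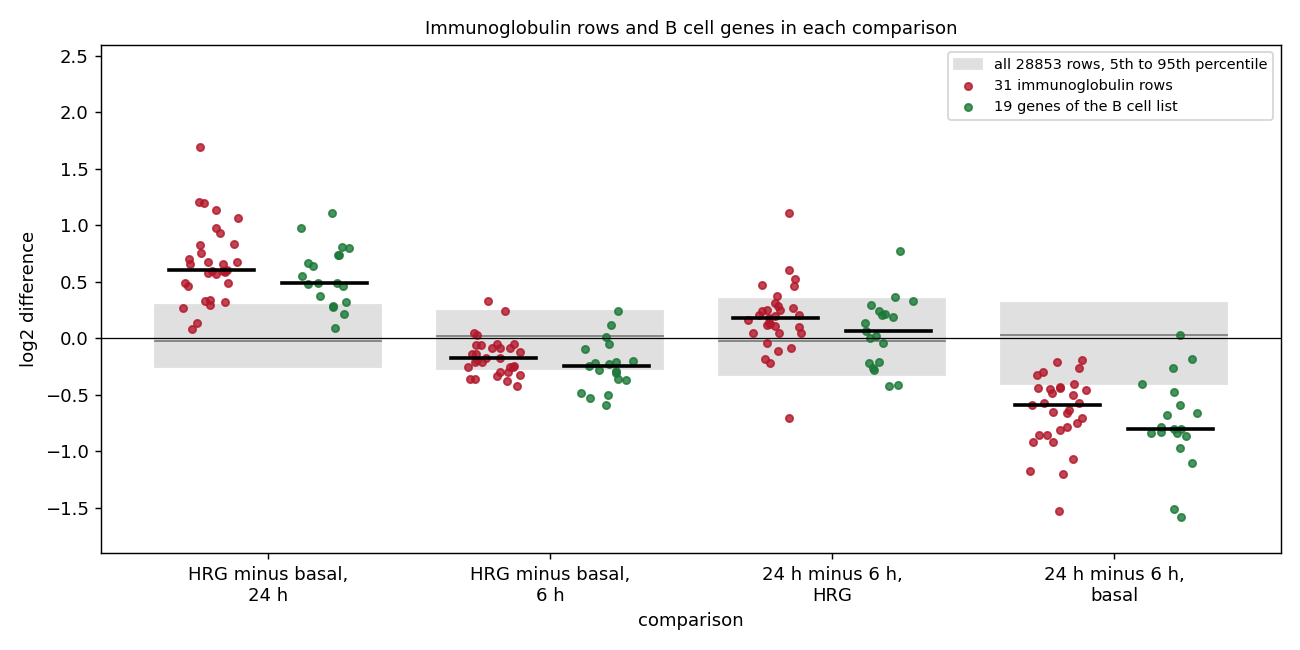
Log2 differences (vertical axis) of the 31 immunoglobulin rows (red) and 19 B cell genes (green) in 4 comparisons (horizontal axis), with black lines at their medians and grey bands from the 5th to the 95th percentile of all rows. The medians of the immunoglobulin rows and the B cell genes are 0.61 and 0.49 for HRG against basal at 24 h, and -0.59 and -0.80 for 24 h against 6 h in basal samples.

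Cd79a, which encodes a signalling chain of the B cell receptor, had 10.09 and 9.62 log2 in HRG samples at 24 h, against 9.08 and 8.65 in basal samples at 24 h, and rose by 0.98 ± 0.17 (adjusted p = 0.0142). Its partner Cd79b had 10.28 and 10.15 log2 with HRG, against 10.09 and 9.77 without it, and did not pass (0.29 ± 0.12, adjusted p = 0.396). At 6 h Cd79b had 9.98 and 10.06 log2 with HRG, against 10.52 and 10.69 without it (-0.59 ± 0.12, adjusted p = 0.0829), and it passed downward in 6 of 16 alternative settings. The 2 chains of the receptor thus had unequal differences, and this inequality was not tested. Ms4a1, which encodes CD20, rose by 0.80 ± 0.16 at 24 h with HRG (adjusted p = 0.0275), and Cd72, an inhibitory co-receptor, by 1.11 ± 0.09 (adjusted p = 0.000305). Fcmr, the receptor for the Fc part of IgM, rose by 0.81 ± 0.18 (adjusted p = 0.0429). Of 16 alternative settings at 24 h, 2 ended the call of Cd79a, 4 that of Ms4a1, 6 that of Fcmr and 0 that of Cd72. At 6 h Cd72 did not follow most of the list. It had 10.90 and 10.95 log2 with HRG, against 10.71 and 10.66 without it. This difference of 0.24 ± 0.09 did not pass, and the median of the 19 genes was -0.24.

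Jchain, the joining chain that links IgM or IgA units into polymers and is made by antibody-secreting cells, had 6.80 and 6.61 log2 in HRG samples at 24 h, against 5.39 and 5.43 in basal samples at 24 h. At 6 h it had 5.33 and 5.42 with HRG, against 5.40 and 5.28 without it. Only the HRG 24 h arrays stood above the others. On those others Jchain was dim: its values of 5.28 to 5.43 lay below the lower quartile of every array (5.85 to 6.00). No detection call was made, so a lower level might not be seen there. It rose by 1.30 ± 0.10 with HRG at 24 h (2.46-fold, adjusted p = 0.000257), and its difference at 6 h was 0.04 ± 0.10. Its difference of effects was 1.26 ± 0.14 (adjusted p = 0.00785), and in basal samples it differed by 0.07 ± 0.10 between the times. Of the 11 measured plasma cell and secretory genes, 2 rose with HRG at 24 h and 0 fell (median 0.12). The other was Sdc1, which encodes the plasma cell surface proteoglycan syndecan-1 and is also made by other cells (0.48 ± 0.11, adjusted p = 0.0490). The call of Sdc1 was lost in 11 of 16 alternative settings, with adjusted p-values up to 0.259. Sdc1 also fell between 6 h and 24 h, by 0.69 ± 0.11 in HRG samples and by 0.81 ± 0.11 in basal samples. Of the 11 genes, 1 rose and 2 fell in HRG samples between the times, and 3 fell in basal samples.

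Genes that assemble or diversify immunoglobulin genes and genes that mark B-1 cells did not pass with HRG. Of 13 measured assembly and diversification genes, 0 passed with HRG at 24 h (median -0.06) or at 6 h (median 0.03), and 1 fell in basal samples with time. Of 8 measured B-1 cell genes, 0 passed with HRG at 24 h (median -0.03) or at 6 h (median -0.18), and 1 fell in basal samples with time. T cell and NK cell markers gave 0 of 14 with HRG at 24 h (median 0.05) and 0 of 14 at 6 h (median -0.21), with 2 that fell in basal samples with time. Their log2 values summed to 98.08 and 97.54 with HRG at 24 h, against 98.14 and 94.00 in basal samples, so that the groups overlapped. At 6 h they summed to 93.14 and 94.28 with HRG, against 96.28 and 99.44 in basal samples, with both HRG arrays lower, as most immunoglobulin rows were in mean. Named after its values were seen, Cd3g, a chain of the T cell receptor complex, differed by -1.11 ± 0.23 at 6 h (adjusted p = 0.0788). In HRG samples, Cd3e and Cd3g rose between 6 h and 24 h, by 0.83 ± 0.18 and 1.07 ± 0.23. The part of T cells in the immunoglobulin values was not tested.

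Receptors that bind antibody were a further group. Of 10 measured, 3 rose with HRG at 24 h and 0 fell (median 0.31). Fcgr4, an activating IgG receptor of mouse macrophages, had 11.08 and 11.08 log2 with HRG, against 9.90 and 9.57 without it (1.34 ± 0.12, adjusted p = 0.000425). Fcgr1, the high-affinity IgG receptor, had 11.30 and 11.25 log2 with HRG, against 10.44 and 9.85 without it (1.13 ± 0.16, adjusted p = 0.00674). The third was Fcmr. Fcgr4 also had a difference of effects of 1.25 ± 0.17 (adjusted p = 0.0152). Among the 12 measured genes of macrophage identity, 3 rose with HRG at 24 h and 0 fell (median 0.21): Fcgr1, Timd4, a receptor for phosphatidylserine (0.74 ± 0.11, adjusted p = 0.00841), and Mertk, a receptor kinase for apoptotic cells (0.51 ± 0.10, adjusted p = 0.0297). Mertk was also the 1 gene of this list that rose at 6 h, by 0.81 ± 0.10 (adjusted p = 0.0136). In basal samples between the times, 2 of the 12 rose and 3 fell, and in HRG samples 3 rose and 0 fell. Their log2 values summed to 143.39 and 142.78 with HRG at 24 h, against 139.35 and 139.13 in basal samples at 24 h. They summed to 140.59 and 141.20 with HRG at 6 h, against 139.98 and 139.28 in basal samples at 6 h.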

How the data were processed

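Transcript levels were measured in 8 samples on Affymetrix arrays. Per the labels' protocols, total RNA was purified on columns and converted to amplified, biotinylated sense cDNA. The deposited log2 values were made by the authors with Affymetrix Expression Console and RMA, per the submitters' processing notes, which also name limma. RMA corrects background, quantile-normalizes arrays and summarises the probes of a row. The versions used and the genome build are not stated there. Probe sequence and scanner background were not used here, so no detection call was made, and the number of arrays limits precision. Cross-hybridization between similar V segments cannot be seen in these values.

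Rows were chosen by symbol in the platform annotation, and 31 of the 32 distinct gene IDs were found in the RefSeq table for GRCm38.p6, which gave names and chromosomes. Groups were taken from the sample titles. In R 4.3.3 with limma 3.58.1, 1 coefficient per group was fitted to all 28853 rows and all 8 arrays (4 residual and 6.048 prior degrees of freedom), with contrasts.fit and eBayes applied to the fit. All tests were two-sided, with Benjamini-Hochberg adjustment over all rows of a comparison, and the threshold was 0.05. There were 5 comparisons: HRG against basal at each time, the change of that effect between times, and 24 h against 6 h with and without HRG. No p was computed for a list.

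The members, the 7 gene lists (96 entries, 90 measured, 4 of them through an older name) and the tests were chosen with earlier results of these data known. Rows named with values were those with a constant region symbol only, every row past the threshold in any comparison, and the 3 largest differences in each direction for HRG at each time. From each list, up to 4 genes past the threshold for HRG were named, with Cd79a, Cd79b, Ms4a1 and Jchain in any case. The fit was tested on simulated data with residuals drawn independently for each row. That setting does not cover rows that move together between arrays, as most immunoglobulin rows did. Alternatives were a replicate block, eBayes with trend and robust, renewed normalization or centring, dropping the dimmest 30% of rows, other choices of rows, a fit restricted to a comparison's own arrays, and omission of each array in turn.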

Additional observations from a re-analysis of the deposited data

Results flagged for a closer look

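In 4 immunoglobulin rows and 3 genes of the other lists, the effect of HRG at 24 h differed from that at 6 h in a direct test (limma, adjusted over all rows). The difference of effects, 24 h minus 6 h, was 1.87 ± 0.25 for Igkv4-91 (row 10545180), whose HRG minus basal values were 1.69 at 24 h and -0.17 at 6 h. It was 1.35 ± 0.24 for row 10545247 (Igkv6-14 and Igkv6-15), with 1.20 at 24 h and -0.14 at 6 h. It was 1.01 ± 0.18 for Igkv9-120 (row 10538882), with 0.59 and -0.42, and 0.98 ± 0.16 for lambda row 10438415, with 0.60 and -0.38. Jchain had a difference of effects of 1.26 ± 0.14, with 1.30 at 24 h and 0.04 at 6 h. Fcgr4 had 1.25 ± 0.17, with 1.34 and 0.09, and Cd72 had 0.87 ± 0.13, with 1.11 and 0.24. These calls were lost in 3 of 15 alternative settings for Igkv4-91, 9 of 14 for row 10545247, 7 of 15 for Igkv9-120 and 6 of 14 for row 10438415. They were lost in 1 of 14 for Jchain, 4 of 15 for Fcgr4 and 6 of 15 for Cd72.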

How the results depend on the processing

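No setting turned the sign of a median, though that of HRG samples over time reached 0.00. No called value of a single row or gene changed sign, but some values that did not pass did: Ighg3 at 24 h ran from -0.21 to 0.37, Igha row 10403034 at 24 h from -0.04 to 0.71 and row 10403009 at 6 h from -0.11 to 0.60. In all, 194 single results lost their call and 80 gained one over all comparisons and settings. With a replicate block, 12 rows passed for the difference of effects and 4 in HRG samples over time (3 higher, 1 lower), against 4 and 1 without it. The block also gave 18 rows for HRG at 24 h and 22 in basal samples over time, against 12 and 16 without it. Nothing says whether arrays with the same replicate number were handled together. Same-numbered arrays deviated from their group means with correlations from -0.308 to 0.356 over all rows. Over the immunoglobulin rows these correlations ran from -0.26 to 0.402. A correlation over rows leaves out a shift that the rows have in common. It therefore cannot show the shared gap between first and second arrays described above, which a block can take up. With eBayes trend and robust, 11 rows passed for the difference of effects and 2 in HRG samples over time. With only the 15 rows of 1 symbol, 3 passed for HRG at 24 h, 2 for the difference of effects (median 0.66) and 6 in basal samples over time. With 1 row per gene (11 rows), the counts were 4 for HRG at 24 h, 5 in basal samples and 2 in HRG samples over time; fewer rows enter these counts by construction. A fit on the arrays compared gave 2 in HRG samples over time. Chosen after seeing the data, the lowest-numbered row of each group of shared transcript records (19 rows) gave 5 for HRG at 24 h. For example, rows 10403018, 10438415 and 10545198, which rose, were then stood for by 10403015, 10438405 and 10545177, which did not pass. The count is thus not that of groups holding a row that rose. Also chosen after seeing the data, each array's lower quartile as covariate gave 3 in HRG samples over time. Apart from single arrays left out, no other count moved by more than 1.5 times. The cause of these changes was not tested.

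Leaving out each array in turn gave 1 to 13 rows for HRG at 24 h (median 0.47 to 0.74), 0 to 0 at 6 h (median -0.32 to -0.01) and 0 to 6 for the difference of effects (median 0.65 to 1.04). It gave 3 to 14 rows in basal samples over time (median -0.70 to -0.43) and 0 to 1 in HRG samples (median 0.00 to 0.34). Without HRG 24 h replicate 1, the 1 row that passed there was Ighg3, downward. The lone array of a group was then assumed to vary like the other groups. Merging near-identical rows changed nothing, since there were none, and a fit on the arrays compared does not apply to the difference of effects.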
